A study of Mus musculus with 5 samples.

Results

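Interferon-stimulated genes were followed through mononuclear phagocyte development in mouse bone marrow. Written with earlier results of these data known, the set held 40 genes of antiviral sensing, antiviral effectors and control of the interferon response. Of these, 37 had a probe set annotated with a single gene symbol and were measured, out of 19938 genes named in the same way, and each of the 37 had 1 such probe set. Gbp2, Ifi204 and Ifi44 had none and were not analysed here. RNA from 5 populations of wild-type C57Bl/6 mice, sorted from marrow by flow cytometry and given no treatment, was hybridised to 1 array per population. All 5 were lineage-negative and CD115-positive. The monocyte-dendritic cell progenitor (MDP) was CD117+ CD135+, the common dendritic cell progenitor (CDP) CD117int CD135+, and the common monocyte progenitor (cMoP) CD117+ CD135-. The classical monocyte was Ly6C+ TremL4- and the nonclassical monocyte Ly6C- TremL4+. The sources used here do not give the age or sex of the mice or whether animals were pooled.

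Type I interferons bind a receptor made of Ifnar1 and Ifnar2, which signals through Jak1 and Tyk2 to a complex that holds Stat2 and Irf9. That complex binds the interferon-stimulated response element in the promoters of its target genes, whose products sense foreign nucleic acid, block viral entry and translation, or restrain the response itself. Interferon-gamma uses a receptor of its own and induces the guanylate-binding proteins strongly. Many of these genes are also transcribed at a tonic level in cells that have met no infection.

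Values are log2 signals of the deposited table, and a difference is the first population named minus the second. A member is called higher or lower when its arrays differ by at least 1 log2 unit and the brighter of the 2 lies at or above a floor of 6.27, the median of all named genes over the 5 arrays. A member under the floor on 1 of the 2 arrays can thus be called in 1 direction only. With 1 array per population there are no replicates, no p-values were computed, and population and array cannot be told apart. Precision is limited by having so few arrays. In these bulk samples, fewer cells carrying a transcript and less transcript per cell cannot be told apart. The sort genes followed the gates. Kit lay between 8.16 and 10.11 on the progenitor arrays and at 5.79 or less on the monocyte arrays. Flt3 was at 10.75 in MDP and 10.74 in CDP, against at most 6.74 elsewhere, and Treml4 was at 11.78 in the nonclassical monocyte, against at most 6.18 elsewhere. Csf1r was at 10.03 or more on all 5 arrays.

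Most interferon-stimulated genes were brightest in the classical monocyte. The classical monocyte array held the highest value of 26 of the 37 members (70.3%), and the nonclassical monocyte array that of 7 (18.9%). CDP and cMoP held the highest value of 2 members each (5.41%), and MDP of 0. Among the 11058 genes past the floor on any array, 17.8% were highest in the classical monocyte, 25.4% in the nonclassical monocyte, 18.1% in MDP, 12.7% in CDP and 23.9% in cMoP. The lowest value lay in cMoP for 22 members (59.5%), where 16% of all genes were lowest. In 13 of these 22 the cMoP value was under the floor, where values have no sure order. Both highest in the classical monocyte and lowest in cMoP were 16 of the 37. The share of all genes with both was not computed. The lowest value lay in the nonclassical monocyte for 6 members (16.2%), where 37.4% of all genes were lowest. MDP was lowest for 5 members, CDP for 4 and the classical monocyte for 0, against 15.8%, 13.4% and 14.7% of all genes. The split between the monocyte arrays depends on scaling. Quantile normalization gave 21 members highest in the classical and 12 in the nonclassical monocyte, and centring gave 28 and 5.

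**Figure D1:**
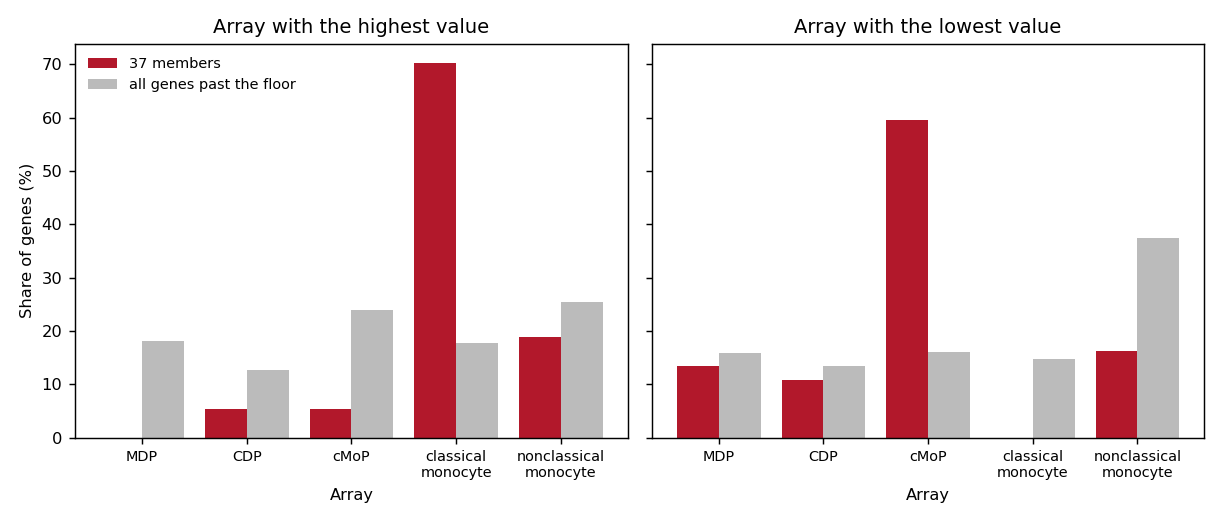
Share of genes, in percent, whose highest (left panel) or lowest (right panel) value fell on each of the 5 arrays, for the 37 members (red, left bar) and for the 11058 genes past the floor (grey, right bar). The red bar reaches 70.3% for highest in the classical monocyte and 59.5% for lowest in cMoP.

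Both monocyte arrays lay above all 3 progenitor arrays for 27 of the 37 members (73.0%), against 18% of all genes. These counts take in orders under the floor, which are not sure. For Ifit1, Mx2 and Rsad2 the nonclassical monocyte and all 3 progenitors lay under it. For 15 members (40.5%) the gap between monocytes and progenitors was 1 log2 unit or more, against 2.38% of all genes. The reverse order, with all progenitors above both monocytes, was met by 0 members and by 21.3% of all genes, or 0.787% with a gap of 1 log2 unit or more. Each member's deviation from its own mean over the arrays gave a median of 1.28 in the classical monocyte and 0.51 in the nonclassical monocyte. The medians were -0.36 in MDP, -0.45 in CDP and -0.84 in cMoP, while those of all genes past the floor lay between -0.03 and 0.02. Of the 37 members, 22 spanned 2 log2 units or more over the arrays (59.5%), against 12.2% of all genes.

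**Figure D2:**
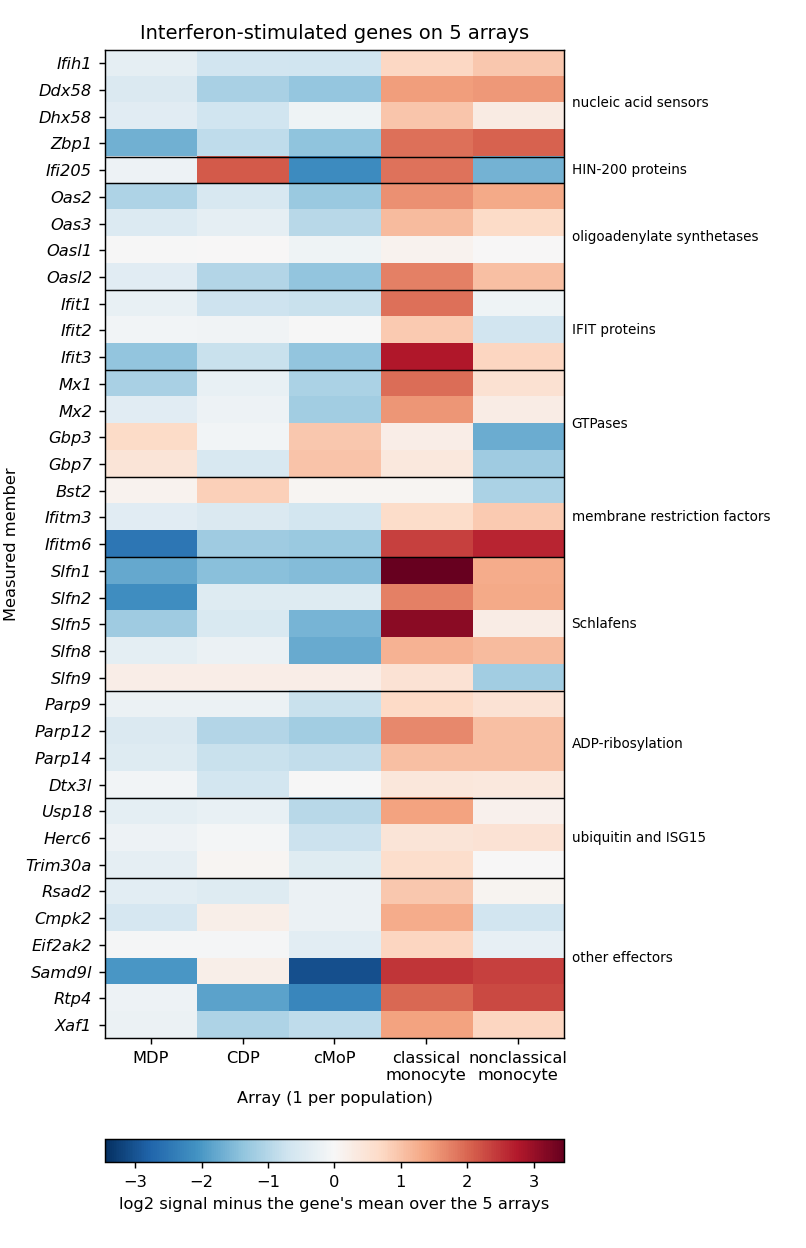
Colour gives the log2 signal of each of the 37 members minus that gene's mean over the 5 arrays, red for above and blue for below, with members in rows grouped by role and arrays in columns. The classical monocyte column is above the mean for all 37 members, weakly so for Gbp3, Gbp7 and Bst2, whose strongest red lies in cMoP, cMoP and CDP, while Ifi205 is red in both CDP and the classical monocyte.

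The promoters of the members were examined for the core of the interferon-stimulated response element, spelled GAAA NN GAAA, with N any base, and searched on either strand, within the RefSeq windows (GRCm38.p6) of 250 bases before and 50 after each start. A window was found for 28 of the 37 measured members, and 16 of them (57.1%) held the motif in at least 1 window. Among all 27025 genes of that promoter table, 3.99% did. The gamma-activated sequence core, spelled TTCNNNGAA and read the same on both strands, was in 6 of the 28 (21.4%), against 9.55% of all genes, and 4 members held both. The motif was in 9 of the 16 members with a range of 2 log2 units or more and in 7 of the 12 others. It was in 12 of the 24 highest on a monocyte array and in 4 of the 4 highest on a progenitor array (Gbp3, Gbp7, Ifi205 and Bst2). A match is a description of the letters and does not show binding. No match was found in the windows of Samd9l, Slfn1, Ifitm6 and Slfn2, which says only that these letters are not in those 300 bases. The windows of the 4 members with the widest range among those that hold the motif are printed 5′ to 3′ on the gene's strand, with the motif in capitals. Because they were picked for holding the motif, its presence in all 4 was fixed in advance.
Slfn5, chr11:82951852-82952151, + strand: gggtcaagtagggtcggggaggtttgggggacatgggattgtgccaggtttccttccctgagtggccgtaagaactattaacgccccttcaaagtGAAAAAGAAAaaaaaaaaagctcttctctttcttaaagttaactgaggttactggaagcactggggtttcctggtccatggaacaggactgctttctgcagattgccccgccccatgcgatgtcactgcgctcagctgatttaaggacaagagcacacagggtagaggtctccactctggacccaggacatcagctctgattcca
Ifi205, chr1:174031706-174032005, - strand: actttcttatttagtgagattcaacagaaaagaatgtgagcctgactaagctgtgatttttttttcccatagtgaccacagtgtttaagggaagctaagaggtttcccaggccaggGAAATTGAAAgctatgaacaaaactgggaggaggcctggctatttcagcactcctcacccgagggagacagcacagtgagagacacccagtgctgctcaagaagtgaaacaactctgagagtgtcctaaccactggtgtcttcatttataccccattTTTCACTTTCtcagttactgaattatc
Ifit3, chr19:34583279-34583578, + strand: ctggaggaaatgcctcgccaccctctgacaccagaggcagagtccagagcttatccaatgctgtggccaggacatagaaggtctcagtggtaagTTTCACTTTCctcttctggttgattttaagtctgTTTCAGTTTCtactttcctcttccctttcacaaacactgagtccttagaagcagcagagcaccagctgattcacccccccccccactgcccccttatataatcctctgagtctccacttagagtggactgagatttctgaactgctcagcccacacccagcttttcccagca
Slfn8, chr11:83020761-83021060, - strand: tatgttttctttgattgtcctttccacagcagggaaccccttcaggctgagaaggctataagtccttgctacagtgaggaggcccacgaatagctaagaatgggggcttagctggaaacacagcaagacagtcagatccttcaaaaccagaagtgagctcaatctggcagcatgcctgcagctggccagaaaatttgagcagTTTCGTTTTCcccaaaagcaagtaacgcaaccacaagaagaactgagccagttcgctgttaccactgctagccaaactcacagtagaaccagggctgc
Ifit3 carries 2 matches, starting at bases 95 and 129 of the window and both in the reverse reading. Ifi205 carries 2, at bases 117 and 274, the second of them after the start. Slfn5 has 1 at base 96, which runs into a stretch of A, and Slfn8 has 1 at base 203. The 300 bases of these 4 windows held 0 matches to TTCNNNGAA. Slfn8 has 2 windows in the table, and the one with the motif is shown.

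**Figure D3:**
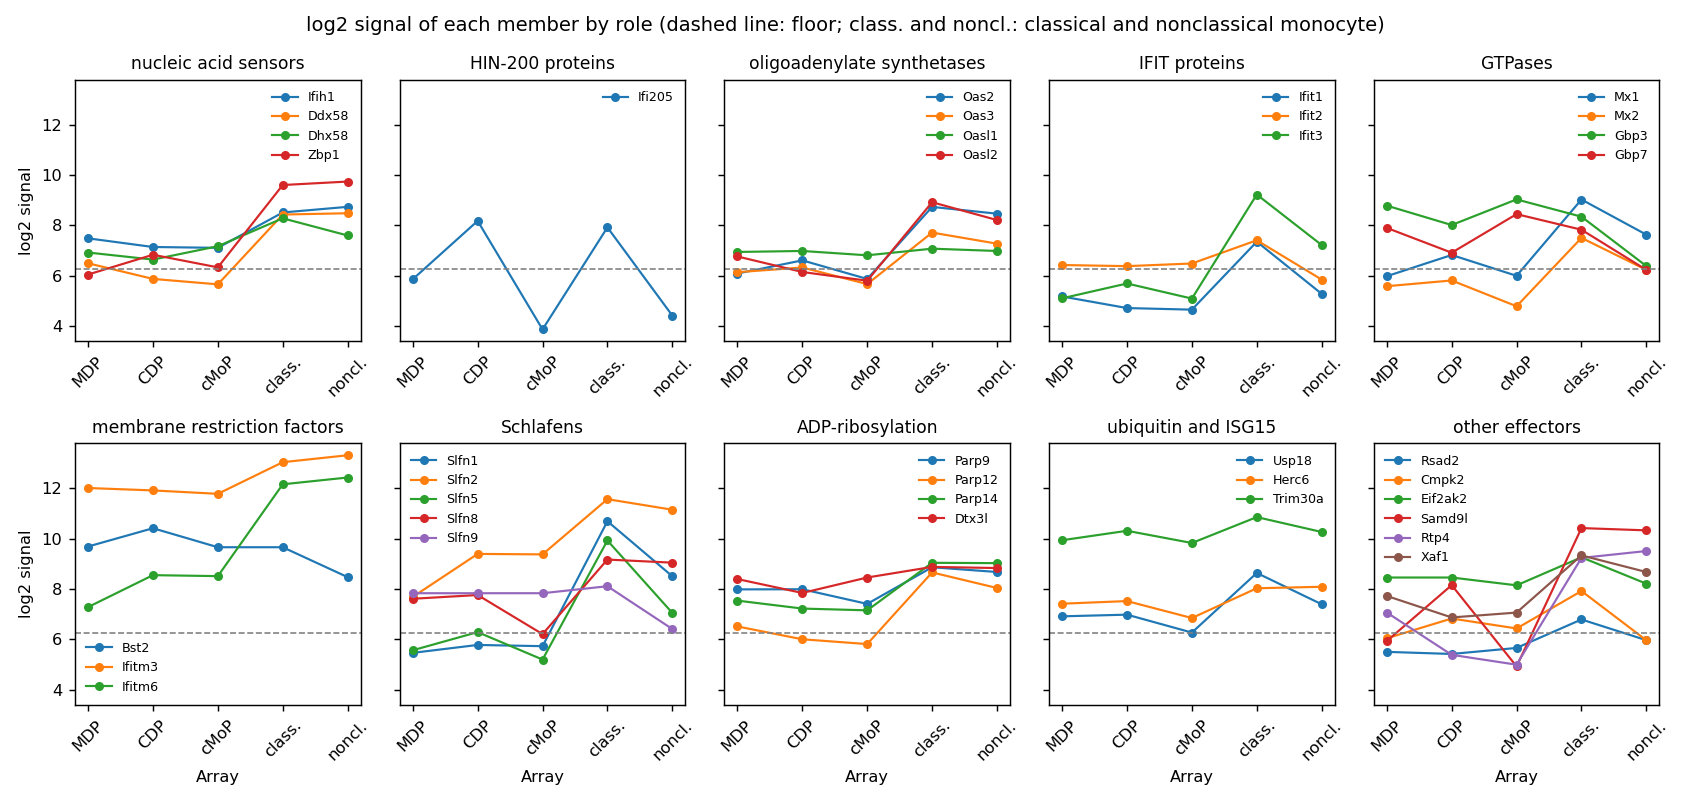
log2 signal of each member on the 5 arrays, 1 panel per role, with arrays along the horizontal axis and the floor of 6.27 as a dashed line; lines join the points of a gene for reading only and do not stand for a time course. Of the 37 lines, 26 peak at the classical monocyte, 7 at the nonclassical monocyte (Ifih1, Ddx58, Zbp1, Ifitm3, Ifitm6, Herc6 and Rtp4), and 4 at a progenitor (Gbp3, Gbp7, Bst2 and Ifi205).

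Among the sensors of foreign nucleic acid, all 4 were higher in the classical monocyte than in cMoP (7.01% of all genes). None differed by 1 log2 unit between the monocyte arrays. Of all genes, 9.82% were lower in the nonclassical than in the classical monocyte and 3.55% higher. Zbp1, a sensor of Z-form nucleic acid that can trigger necroptosis, had values of 6.05 in MDP, 6.83 in CDP, 6.33 in cMoP, 9.60 in the classical and 9.74 in the nonclassical monocyte. Ddx58, which encodes RIG-I, had values of 6.49, 5.87 and 5.66 in MDP, CDP and cMoP, and of 8.43 and 8.48 in classical and nonclassical monocytes. For both genes each monocyte value lay above each progenitor value by more than 1 log2 unit. Ifih1, which encodes the long double-stranded RNA sensor MDA5, had values of 7.49 in MDP, 7.14 in CDP, 7.11 in cMoP, 8.51 in the classical and 8.74 in the nonclassical monocyte. Dhx58, which encodes their relative LGP2, had values of 6.92, 6.64 and 7.17 in MDP, CDP and cMoP, and of 8.28 and 7.60 in classical and nonclassical monocytes. Its difference between classical monocyte and cMoP was 1.11, and 0.98 after quantile normalization.

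Ifi205, a member of the HIN-200 family of interferon-inducible nuclear proteins, was bright on an array of each kind, 1 progenitor and 1 monocyte. Its values were 5.86 in MDP, 8.18 in CDP, 3.87 in cMoP, 7.92 in the classical and 4.42 in the nonclassical monocyte. CDP and the classical monocyte were thus bright, and the other 3 arrays lay under the floor. The difference was 2.32 between CDP and MDP, -4.31 between cMoP and CDP, 4.05 between classical monocyte and cMoP, and -3.50 between nonclassical and classical monocyte. Because the dim arrays lay under the floor, the folds are bounds, at least 3.76-fold higher in CDP than in MDP and at least 3.14-fold lower in the nonclassical than in the classical monocyte.

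Of the oligoadenylate synthetases, whose product activates the ribonuclease RNase L, 3 of 4 were higher in the classical monocyte than in cMoP (7.01% of all genes). Oas2 had values of 6.09 in MDP, 6.61 in CDP, 5.87 in cMoP, 8.73 in the classical and 8.47 in the nonclassical monocyte. Oas3 had values of 6.14, 6.33 and 5.67 in MDP, CDP and cMoP, and of 7.71 and 7.27 in classical and nonclassical monocytes. Oasl2, an oligoadenylate synthetase-like protein, had values of 6.76, 6.15 and 5.80 in MDP, CDP and cMoP, and of 8.92 and 8.21 in classical and nonclassical monocytes. On all 3, both monocytes were above every progenitor and the nonclassical value was the smaller of the pair by less than 1 log2 unit. Oasl1, which in mouse cells limits translation of Irf7, differed from them, with values between 6.81 and 7.07 on all 5 arrays. Its range of 0.26 was the smallest of the 37 members, and CDP and the nonclassical monocyte held the same value of 6.98.

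The IFIT proteins bind viral RNA that lacks host cap marks or act beside those that do, and 2 of 3 genes, Ifit1 and Ifit3, were higher in the classical monocyte than in cMoP (7.01% of all genes). Ifit3 had values of 5.10 in MDP, 5.69 in CDP, 5.09 in cMoP, 9.23 in the classical and 7.22 in the nonclassical monocyte. Ifit1 had values of 5.17, 4.71 and 4.65 in MDP, CDP and cMoP, and of 7.35 and 5.28 in classical and nonclassical monocytes. Ifit2 had values of 6.43, 6.38 and 6.49 in MDP, CDP and cMoP, and of 7.41 and 5.85 in classical and nonclassical monocytes. The classical monocyte was highest for each of the 3, and the gap to the next array was 2.01 for Ifit3, 2.07 for Ifit1 and 0.92 for Ifit2. In the nonclassical monocyte all 3 were lower than in the classical (9.82% of all genes), by differences of -2.01, -2.07 and -1.56. Ifit1 and Ifit2 lay under the floor in the nonclassical monocyte, so these folds are bounds, at least 2.12 and 2.20. Ifit1 was past the floor on 1 array, so its fold against cMoP is at least 2.12. The probe set of Ifit3 could also read its close copy Ifit3b, which was not tested.

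The interferon-induced GTPases had a pair of patterns. Mx1, a dynamin-like GTPase that blocks influenza viruses, had values of 5.98 in MDP, 6.82 in CDP, 6.00 in cMoP, 9.03 in the classical and 7.63 in the nonclassical monocyte. C57BL/6 mice carry an Mx1 allele that makes no functional protein, so this is a level of transcript. Mx2 had values of 5.58, 5.81 and 4.79 in MDP, CDP and cMoP, and of 7.50 and 6.23 in classical and nonclassical monocytes. Both led in the classical monocyte by more than 1 log2 unit, Mx1 by 1.40 and Mx2 by 1.27. Gbp3 and Gbp7, of the guanylate-binding proteins that attack the vacuoles of intracellular pathogens, instead were highest in cMoP and lowest in the nonclassical monocyte. Gbp3 had values of 8.78 in MDP, 8.01 in CDP, 9.03 in cMoP, 8.35 in the classical and 6.38 in the nonclassical monocyte. Gbp7 had values of 7.90, 6.91 and 8.45 in MDP, CDP and cMoP, and of 7.83 and 6.23 in classical and nonclassical monocytes. Against MDP the nonclassical monocyte was 5.28-fold lower for Gbp3 (-2.40) and at least 3.10-fold lower for Gbp7 (-1.67). Between cMoP and CDP the difference was 1.53 for Gbp7 and 1.02 for Gbp3, the second being 0.95 after quantile normalization.

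Of the membrane restriction factors, Ifitm6 and Ifitm3 were highest in the nonclassical monocyte, with both monocytes above every progenitor by 1 log2 unit or more, and Bst2 was not. Ifitm6, an interferon-induced transmembrane protein, had values of 7.28 in MDP, 8.55 in CDP, 8.51 in cMoP, 12.16 in the classical and 12.43 in the nonclassical monocyte. It was 12.5-fold higher in the classical monocyte than in cMoP and 35.5-fold higher in the nonclassical monocyte than in MDP, and it was already higher in CDP (1.27) and cMoP (1.23) than in MDP. Ifitm3, which stops viruses from fusing with endosomes, had values of 12.01, 11.92 and 11.78 in MDP, CDP and cMoP, and of 13.04 and 13.32 in classical and nonclassical monocytes. Its difference between classical monocyte and cMoP was 1.26. Bst2 encodes tetherin, which holds budding virions at the cell surface and is used as a marker of plasmacytoid dendritic cells in mice. It had values of 9.69 in MDP, 10.42 in CDP, 9.66 in cMoP, the same value in the classical monocyte, and 8.47 in the nonclassical monocyte. CDP was thus highest for Bst2, by 0.73, and the nonclassical monocyte lowest, with a difference of -1.19 from the classical that came just under the threshold after quantile normalization. Of 6 measured plasmacytoid markers, 3 were at or above the floor in CDP (Siglech, Tcf4 and Cox6a2). Tcf4 and Cox6a2 were past it on every array, and Siglech in CDP alone. Ccr9, Spib and Pacsin1 were under the floor on every array. The list of 6 averaged 7.33 in CDP, against 6.54 in MDP, 6.09 in cMoP, 6.20 in the classical and 6.47 in the nonclassical monocyte. The part of such cells in the Bst2 value was not tested.

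Of the Schlafen genes, a family of growth and antiviral regulators, 4 of 5 were higher in the classical monocyte than in cMoP (7.01% of all genes). Slfn1 had values of 5.46 in MDP, 5.78 in CDP, 5.73 in cMoP, 10.69 in the classical and 8.51 in the nonclassical monocyte. Slfn5 had values of 5.57, 6.29 and 5.20 in MDP, CDP and cMoP, and of 9.93 and 7.05 in classical and nonclassical monocytes. Both led in the classical monocyte, at least 21.5-fold higher than in cMoP for Slfn1 and at least 12.6-fold for Slfn5. The nonclassical monocyte was 4.55-fold lower than the classical for Slfn1 and 7.35-fold lower for Slfn5. The difference of Slfn5 between cMoP and CDP, -1.09, was -0.98 after quantile normalization and also after centring. With cMoP under the floor, that fold is at least 1.01. Slfn2, which keeps mouse T cells quiescent, had values of 7.69 in MDP, 9.40 in CDP, 9.38 in cMoP, 11.57 in the classical and 11.15 in the nonclassical monocyte. It was higher in both committed progenitors than in MDP, by 1.71 in CDP and 1.69 in cMoP, and higher again in the classical monocyte than in cMoP by 2.19. Slfn8 had values of 7.61, 7.76 and 6.21 in MDP, CDP and cMoP, and of 9.17 and 9.05 in classical and nonclassical monocytes. Here cMoP was the low array, with differences of -1.41 from MDP and -1.55 from CDP. Slfn9 held the same value of 7.83 in MDP, CDP and cMoP, with 8.11 in the classical and 6.41 in the nonclassical monocyte. Slfn8 and Slfn9 are close relatives whose probe sets could read each other's transcripts, which was not tested.

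Of the genes of ADP-ribosylation, 3 of 4 were higher in the classical monocyte than in cMoP (7.01% of all genes). Parp12 had values of 6.51 in MDP, 6.00 in CDP, 5.81 in cMoP, 8.66 in the classical and 8.04 in the nonclassical monocyte. Parp14, a mono-ADP-ribosyltransferase like Parp12, had values of 7.54, 7.22 and 7.15 in MDP, CDP and cMoP, and of 9.04 and 9.03 in classical and nonclassical monocytes. Parp9 had values of 7.99 in both MDP and CDP, 7.41 in cMoP, 8.87 in the classical and 8.68 in the nonclassical monocyte. The 3 differences between classical monocyte and cMoP were 2.85 for Parp12, 1.89 for Parp14 and 1.46 for Parp9. All 3 genes differed by less than 1 log2 unit between the monocyte arrays. Of all genes, 9.82% were lower in the nonclassical than in the classical monocyte and 3.55% higher. Dtx3l, the ubiquitin ligase that pairs with Parp9, passed the threshold in none of the 6 comparisons, with values of 8.40, 7.84 and 8.46 in MDP, CDP and cMoP, and of 8.88 and 8.83 in classical and nonclassical monocytes. Beside Oasl1 it was the sole such member, and the share of all genes that passed in none was not computed.

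Genes acting through ubiquitin and its relative ISG15 were higher in the classical monocyte than in cMoP for 3 of 3 (7.01% of all genes). Usp18, which removes ISG15 from proteins and damps signalling by the interferon receptor, was measured at 6.91 in MDP, 6.98 in CDP, 6.27 in cMoP, 8.64 in the classical and 7.39 in the nonclassical monocyte. It led in the classical monocyte by 1.24. Herc6, the ISG15 ligase of mice, had values of 7.42, 7.52 and 6.85 in MDP, CDP and cMoP, and of 8.03 and 8.09 in classical and nonclassical monocytes. Trim30a had values of 9.94, 10.31 and 9.83 in MDP, CDP and cMoP, and of 10.86 and 10.27 in classical and nonclassical monocytes. Its difference between classical monocyte and cMoP, 1.03, was 0.98 after centring.

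Among the remaining effectors, Samd9l, which restricts poxviruses and slows myeloid growth in mice, had a range of 5.50, with its low end under the floor. It had values of 5.93 in MDP, 8.16 in CDP, 4.92 in cMoP, 10.42 in the classical and 10.33 in the nonclassical monocyte. The classical monocyte was at least 17.8-fold higher than cMoP, and cMoP at least 3.70-fold lower than CDP. Rtp4, a chaperone of G protein-coupled receptors, had values of 7.07, 5.38 and 4.99 in MDP, CDP and cMoP, and of 9.24 and 9.51 in classical and nonclassical monocytes. MDP was the progenitor with the higher Rtp4, and CDP for Samd9l, so the progenitors did not share 1 order. Xaf1, a pro-apoptotic partner of the caspase inhibitor XIAP, had values of 7.72 in MDP, 6.87 in CDP, 7.06 in cMoP, 9.34 in the classical and 8.68 in the nonclassical monocyte. Between nonclassical monocyte and MDP its difference of 0.95 became 1.12, past the threshold, after quantile normalization.

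Rsad2 and Cmpk2 encode viperin, which makes a chain-terminating nucleotide, and a nucleotide kinase. Cmpk2 had values of 6.04 in MDP, 6.83 in CDP, 6.43 in cMoP, 7.92 in the classical and 5.96 in the nonclassical monocyte. Rsad2 had values of 5.50, 5.42 and 5.66 in MDP, CDP and cMoP, and of 6.79 and 5.97 in classical and nonclassical monocytes, and was past the floor in the classical monocyte alone. Cmpk2 led in that array by 1.09. Eif2ak2, which encodes the translation-blocking kinase PKR, had the same value of 8.46 in MDP and CDP, with 8.15 in cMoP, 9.26 in the classical and 8.21 in the nonclassical monocyte. Its difference between nonclassical and classical monocyte, -1.05, was -0.85 after quantile normalization. In all, 8 members led in the classical monocyte by 1 log2 unit or more (21.6%), against 1.09% of all genes. No member led on another array by that much, where 0.244% of all genes did in MDP, 0.199% in CDP, 0.28% in cMoP and 2.88% in the nonclassical monocyte. The 8 were Ifit1, Ifit3, Mx1, Mx2, Slfn1, Slfn5, Usp18 and Cmpk2.

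The comparison of the dendritic progenitor with MDP found few members changed. In CDP 4 of the 32 members past the floor were higher than in MDP, Ifi205, Samd9l (2.22), Slfn2 and Ifitm6 (12.5%, against 1.15% of all genes). Rtp4 was lower, with a difference of -1.68 (3.12%, against 1.06% of all genes). Its CDP value lay under the floor, so the fold is at least 1.74. The median member difference was 0.02, and that of all genes -0.01.

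The monocyte progenitor was set against MDP and against CDP. Against MDP, 2 of 26 members past the floor were higher in cMoP, Slfn2 and Ifitm6, and 2 were lower, Rtp4 (-2.07) and Slfn8 (7.69% each way, against 1.44% and 1.40% of all genes). Rtp4 and Slfn8 lay under the floor in cMoP, so their folds are bounds, at least 1.74 and 2.54. The median member difference was -0.18, against 0.00 for all genes. Against CDP, 2 of 28 were higher in cMoP, Gbp3 and Gbp7 (7.14%, against 3.23% of all genes). Lower were Ifi205, Samd9l (-3.23), Slfn8 and Slfn5 (14.3%, against 2.20% of all genes). Each lay under the floor in cMoP, so the folds are bounds. They were at least 3.76 for Ifi205, 3.70 for Samd9l, 2.82 for Slfn8 and 1.01 for Slfn5. The median member difference was -0.35, against 0.02 for all genes. These backgrounds depend on scaling. Of all genes past the threshold, 50.7% were higher in cMoP than in MDP and 64.9% after centring, and 59.4% were higher in cMoP than in CDP and 72.0% after centring. These 3 progenitor comparisons share arrays and are not independent of each other.

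The comparison of the classical monocyte with cMoP had the most members past the threshold of the 6 comparisons. All 37 members were past the floor, and 30 were higher in the classical monocyte (81.1%, against 7.01% of all genes), while 0 were lower (4.40% of all genes). All 37 were at or above the floor in the classical monocyte, but 21 in cMoP. The others passed through the classical monocyte array alone, so they could not be called lower. The median member difference was 2.19, with a range of -0.69 to 5.50, against a median of -0.01 for all genes. In 20 members the difference was 2 log2 units or more, a threshold at which the share of all genes was not computed. Differences with cMoP under the floor, such as the 5.50 of Samd9l, are not measured folds. Taken against the floor, Ifi205 (at least 3.14-fold), Oas3 (2.72), Mx2 (2.35) and Ifit1 (2.12) fell short of 2 log2 units. The 7 members under the threshold were Oasl1, Ifit2 (0.92), Slfn9 (0.28), Dtx3l (0.42), Bst2 (0.00), Gbp7 (-0.62) and Gbp3 (-0.69). Quantile normalization and centring each gave 29 higher. Members and comparisons were chosen with earlier results of these data known, so the contrast with all genes is no independent test. Of interferon-stimulated genes outside the members, 12 of 31 past the floor were higher, with a median difference of 0.66. That list was also chosen with earlier results known and is no independent test either.

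**Figure D4:**
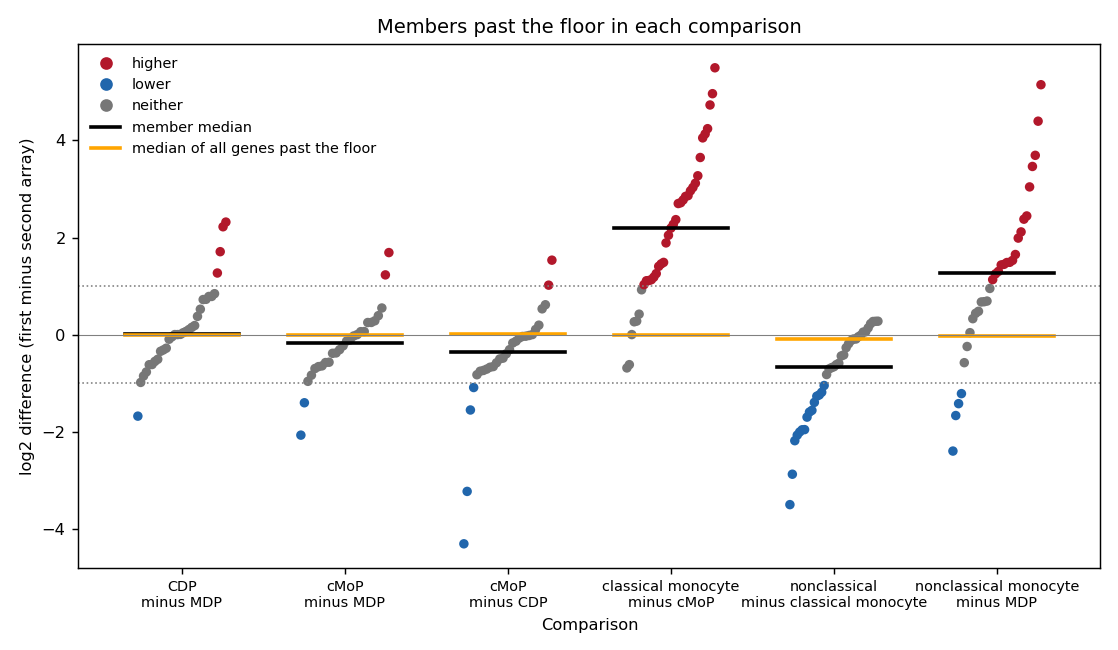
Each point is the log2 difference of a member past the floor in 1 of the 6 comparisons, red for higher, blue for lower and grey for within the threshold of 1 log2 unit (dotted lines). The black bar is the member median and the orange bar the median of all genes past the floor; for classical monocyte minus cMoP they lie at 2.19 and -0.01.

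Between the monocyte subsets the members were lower in the nonclassical monocyte or did not pass the threshold. In the nonclassical monocyte 15 of 37 were lower than in the classical (40.5%, against 9.82% of all genes) and 0 were higher (3.55% of all genes). All 37 were at or above the floor in the classical monocyte, but 30 in the nonclassical. The others could not be called higher. The 15 were Ifi205, Ifit1, Ifit2, Ifit3, Mx1, Mx2, Gbp3, Gbp7, Bst2, Slfn1, Slfn5, Slfn9, Usp18, Cmpk2 and Eif2ak2. The median member difference was -0.66, against -0.09 for all genes, and the largest positive one was 0.28, that of Ifitm3. None of the 4 sensors, 4 oligoadenylate synthetases or 4 ADP-ribosylation genes was among the 15. This comparison shares the classical monocyte array with the one against cMoP.

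Set against MDP, the nonclassical monocyte had 18 of 32 members past the floor higher (56.3%, against 9.01% of all genes) and 4 lower (12.5%, against 16.3% of all genes). Of the members, 30 were at or above the floor in the nonclassical monocyte and 24 in MDP. The 4 lower were Gbp3, Gbp7, Bst2 and Slfn9 (-1.42). The median member difference was 1.28, against -0.03 for all genes. Among the highest were Ifitm6 (5.15), Samd9l (4.40), Zbp1 (3.69), Slfn2 (3.46) and Slfn1 (3.04).

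Genes of the pathway itself were taken from lists of 7 interferons, 10 receptor and signalling genes and 10 regulators. Of 6 measured interferon genes, 4 were under the floor on every array. Ifnk reached 7.08 and Ifna2 6.43 in the nonclassical monocyte, and both were under the floor on the other 4 arrays. The classical monocyte had 3 of 9 measured receptor and signalling genes higher than cMoP and 0 lower (7.01% and 4.40% of all genes), and the median difference was 0.73, against -0.01 for all genes. The higher ones were Stat2 (1.75), Irf9 (1.29) and Ifngr2, a chain of the interferon-gamma receptor (1.10). Ifnar1 lay between 8.67 and 9.46 and Ifnar2 between 10.92 and 11.76 over the 5 arrays, with cMoP lowest for both.

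Among the 10 regulators the classical monocyte had 3 higher than cMoP and 0 lower (7.01% and 4.40% of all genes), and the median difference was 0.45. Irf7, the factor that amplifies type I interferon responses, had values of 6.42 in MDP, 6.69 in CDP, 5.65 in cMoP, 9.21 in the classical and 8.39 in the nonclassical monocyte. Like 22 of the members it was lowest in cMoP, and its difference between classical monocyte and cMoP was 3.55. Irf5 (2.44) and Irf2 (1.21) were the other regulators higher in that comparison. Irf8, a factor of monocyte and dendritic cell development, was highest in CDP at 11.07 and lowest in the nonclassical monocyte at 9.001. Socs1, an inhibitor of cytokine receptors, lay between 6.44 and 6.55 on all arrays.

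Markers of other cells were measured beside these values. Of 8 neutrophil markers, Ltf and Retnlg were under the floor on all 5 arrays. The list averaged 8.05 in the classical monocyte, against 6.06 in MDP, 6.07 in CDP, 6.80 in cMoP and 6.04 in the nonclassical monocyte. S100a8 and S100a9, which classical monocytes also make, were at 12.64 and 12.07 there, Mmp8 was at 11.28, Camp at 6.89 and Ngp at 6.62. Cxcr2, the remaining marker, was under the floor there at 5.51, with a difference of -1.37 from cMoP, and was highest in MDP at 7.55. The part of such cells in the classical monocyte values was not tested. All 6 markers of T and NK cells were under the floor on every array, as were 4 of 5 measured B cell markers, the exception being Cd79b at 8.41 to 9.50.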

How the data were processed

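Per the labels' protocols, RNA of sorted cells was isolated by RNAqueous-Micro and biotin-labelled by Nugen Encore. The deposited table holds log2 values made by the authors for 35556 probe sets on 5 arrays, from 1.59 to 14.24. The log2 scale was read from these values. For the base, background correction, scaling and software, the sources used here say nothing, and another base would change each fold. In 46.6% of probe sets 2 or more arrays hold exactly the same value, which held for 4 of the 37 members, so small differences may have been removed. Array medians ran from 6.02 to 6.16.

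Probe sets were named from the platform annotation, in which 21789 carry 1 symbol and 1621 several. For a gene with several probe sets, the one with the highest mean was used. Differences, counts and medians were computed with Python 3.11.15, pandas 2.3.3 and numpy 2.4.6, and the counting was tested on simulated data. A fold whose lower value lay under the floor was taken against that floor, as a lower bound. A gene tied for highest or lowest was counted on no array. Every measured member was named, with all 5 values where it passed the threshold in a comparison or spanned 2 log2 units. Members, lists, comparisons and rules were chosen with earlier results of these data known. Alternatives were quantile normalization, centring on the median, averaging the probe sets of a gene, a floor at the upper quartile (7.93) and no floor. Promoter sequences are RefSeq's (GRCm38.p6), and protein sequences were not used here.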

Additional observations from a re-analysis of the deposited data

How the results depend on the processing

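No paired analysis was possible because each population has 1 array. Averaging the probe sets of a gene moved no count, median or member difference past its limit, since each member has 1 probe set. Quantile normalization put 12 members highest in the nonclassical monocyte and 1 higher in cMoP than in CDP, and gave medians of -0.46 for nonclassical minus classical monocyte and 1.38 for nonclassical monocyte minus MDP. Centring gave medians of -0.0694 for cMoP minus MDP and -0.20 for cMoP minus CDP, and it moved the median of all genes in those comparisons to 0.11 and 0.13.

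With the floor at the upper quartile, 0 members were lower in CDP and 0 in cMoP than in MDP, 2 lower in cMoP than in CDP, 9 lower in the nonclassical than in the classical monocyte and 2 lower in the nonclassical monocyte than in MDP. The medians were then 0.38 for CDP minus MDP, 0.0168 for cMoP minus MDP, -0.22 for cMoP minus CDP, -0.51 for nonclassical minus classical monocyte and 1.44 for nonclassical monocyte minus MDP. That of cMoP minus MDP changed sign, and fewer members were past this floor (10 in that comparison). With no floor, 4 were lower in cMoP than in MDP, and the median of nonclassical monocyte minus MDP was 0.95. No member past the threshold changed sign under the scalings or that averaging, and the members that crossed it are given beside their values. The cause of these shifts was not tested. Of the 37 members, 17 were at or above the main floor on all 5 arrays.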

Other observations

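Interferon-stimulated genes outside the 37 members gave a related but smaller difference. Of 33 measured genes on that list, 17 were highest in the classical monocyte, against 17.8% of all genes past the floor on any array. Gbp4, counted among them, was under the floor on all 5 arrays. How this count depends on scaling was not checked. In the classical monocyte 12 of 31 past the floor were higher than in cMoP and 0 lower, against 7.01% and 4.40% of all genes, with a median difference of 0.66, against -0.01 for all genes. In the classical monocyte 31 were at or above the floor and in cMoP 25, so the others could not be called lower. The list was chosen with earlier results of these data known. Ifi27l2a, a small interferon-induced membrane protein, had values of 9.17 in MDP, 10.38 in CDP, 8.26 in cMoP, 12.78 in the classical and 12.55 in the nonclassical monocyte. Slfn4, a Schlafen gene of myeloid cells, was higher in the classical monocyte than in cMoP by 2.92, and Cxcl10, a chemokine that attracts T cells, by 2.75. Ifi203, a HIN-200 gene like Ifi205, was highest in CDP at 11.43, with 11.19 in the classical monocyte, 10.75 in MDP, 9.84 in cMoP and 9.29 in the nonclassical monocyte. The immunoproteasome subunits Psmb8 and Psmb9 each spanned 0.59 over the 5 arrays.

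Between the monocyte subsets, 8 of 32 genes of that list past the floor were lower in the nonclassical monocyte and 3 were higher, against 9.82% and 3.55% of all genes. Cxcl10 had a difference of -2.70, Slfn4 of -2.37 and Slfn3 of -2.17. The 3 higher were Ifitm1 (2.47), Gbp8 (1.57) and Gbp9 (1.503). Gbp9 had values of 5.54 in MDP, 6.00 in CDP, 5.61 in cMoP, 7.49 in the classical and 8.99 in the nonclassical monocyte. Within the guanylate-binding proteins, Gbp8 and Gbp9 were thus highest on the array where Gbp3 and Gbp7 were lowest. Gbp8 was past the floor on that array alone, at 6.59. Gbp5 was highest in cMoP at 6.76, and Gbp4 was under the floor on every array.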
